A study of Mus musculus with 4 samples.

Results

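The loci of Fgfr2 and Egfr, genes of a pair of growth factor receptors, were examined in peak lists of p63 binding and of histone H3 acetylated at lysine 27 (H3K27ac) from primary epithelial progenitor cells of the mouse salivary gland. The members are the peaks whose midpoint lies in a 400 kb window around each gene on the mm9 build: chr7:137200000-137600000 for Fgfr2, whose gene spans about 137.306 to 137.410 Mb, and chr11:16550000-16950000 for Egfr, whose gene spans about 16.652 to 16.813 Mb. In these windows lie 11 of the 4130 p63 peaks of the series (6 at Fgfr2, 5 at Egfr) and 108 of its 183757 H3K27ac peaks (51 at Fgfr2, 57 at Egfr). The cells came from the salivary gland of adult mice aged 12 weeks that were wild type for p63, a genotype shared by every group. The 4 libraries form 4 groups of 1: chromatin precipitated with the mouse monoclonal antibody 4A4 against p63, the input of that sample, chromatin precipitated with an antibody to H3K27ac, and its input. The titles of the p63 and H3K27ac samples begin differently (PSECS and pSG), and a position shared by both lists need not come from the same cells. Each deposited list sets 1 ChIP library against its input and holds positions only. No value below therefore has a replicate check, the depth of the libraries is unknown, and intervals cover counting error alone. The loci were chosen with earlier results of these lists known, so their place among other windows is a description.

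Fgfr2 and Egfr are receptor tyrosine kinases that sit in the plasma membrane. Fgfr2 binds fibroblast growth factors; its epithelial splice form answers FGF7 and FGF10 made by the mesenchyme and is needed for salivary glands to bud and branch. Egfr binds epidermal growth factor and its relatives, and its activity promotes branching of the salivary epithelium. p63, encoded by Trp63, is a p53-family transcription factor of basal epithelial cells, and H3K27ac marks active promoters and enhancers.

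The promoter sequences of both genes are shown because the widest H3K27ac peak of each window begins within about 1 kb of the gene start. They come from RefSeq on the GRCm38.p6 build (250 bases before to 50 after the gene start, read 5′ to 3′ along the gene), and these positions are not on the mm9 scale of the peaks. The Fgfr2 promoter lies at chr7:130266759-130267058 on the minus strand and the Egfr promoter at chr11:16751953-16752252 on the plus strand. Capitals mark matches, on either strand, to the p53-family core (CNNG, any 6 bases, CNNG; the same on both strands), to CATG, the inner letters of 1 p53-family repeat, or to the GC box GGGCGG (read as CCGCCC on the other strand).
Fgfr2: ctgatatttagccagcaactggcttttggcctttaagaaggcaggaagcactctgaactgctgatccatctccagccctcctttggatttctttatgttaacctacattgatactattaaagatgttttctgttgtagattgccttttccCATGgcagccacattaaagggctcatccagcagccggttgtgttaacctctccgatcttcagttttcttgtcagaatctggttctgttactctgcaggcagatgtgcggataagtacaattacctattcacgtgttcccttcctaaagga
Egfr: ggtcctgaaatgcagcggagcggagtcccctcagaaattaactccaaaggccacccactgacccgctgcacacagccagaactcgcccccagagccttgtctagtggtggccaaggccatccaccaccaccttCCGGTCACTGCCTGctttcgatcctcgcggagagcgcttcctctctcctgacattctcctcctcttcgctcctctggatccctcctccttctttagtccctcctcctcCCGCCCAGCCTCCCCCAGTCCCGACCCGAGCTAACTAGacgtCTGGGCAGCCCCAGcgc

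The Fgfr2 promoter holds 1 CATG and no match to the other motifs, and the Egfr promoter holds 5 matches to the p53-family core, 1 GC box and no CATG. In Egfr 3 of the core matches overlap in a row and the GC box overlaps the first of them, so they run together as capitals. Such matches are common: the p53-family core occurs in 70.2% of the 32851 promoters of the same length, CATG in 61.1% and GGGCGG in 35.7%. The pair differs in composition. The Egfr promoter is 62.3% G or C with 15 CpG pairs, and the Fgfr2 promoter 43.7% with 4 CpG pairs, where the median promoter has 52.7% and 7. A match is a description of the letters and does not place p63 there. The p63 peaks lie outside these 300 bases by the approximate gene starts, and their own sequence is not shown because no mm9 genome was used here.

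Both gene starts carried a broad H3K27ac peak on the transcribed side and 1 p63 peak, which lies inside the broad peak at Fgfr2 and just past it at Egfr. At Fgfr2, which is transcribed toward lower coordinates, the H3K27ac peak chr7:137408323-137409790 is 1468 bases wide and 99.3% of the list is narrower. Of all H3K27ac peaks 1.91% reach 1000 bases, and 8.51% of those share a base with p63. The p63 peak chr7:137408505-137408763 (259 bases), about 1.37 kb into the gene, lies wholly inside it. A second broad H3K27ac peak, chr7:137407114-137408160 (1047 bases), lies further into the gene, 344 bases past that p63 peak. At Egfr, transcribed toward higher coordinates, the H3K27ac peak chr11:16652249-16653691 is 1443 bases wide and 99.2% of the list is narrower. The p63 peak chr11:16653825-16653982 (158 bases) lies about 1.90 kb into the gene, 133 bases past the end of that peak, and wholly inside the next H3K27ac peak, chr11:16653812-16654028 (217 bases). A p63 peak wholly inside an H3K27ac peak is not the usual case: 9.78% of all p63 peaks (404 of 4130) lie so, and 2 of the 11 members do. The gene starts are known here only to about 1 kb, so these distances are approximate.

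**Figure D1:**
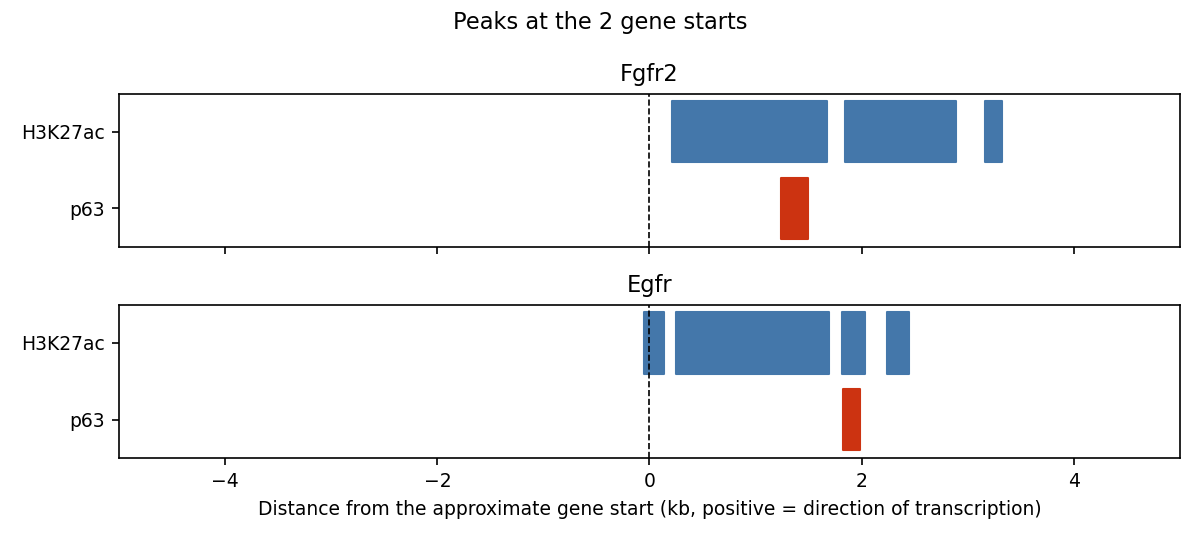
Peaks within 5 kb of each approximate gene start, drawn to scale in the direction of transcription; the dashed line is the gene start, known to about 1 kb. In both genes p63 (red) lies between 1 and 2 kb into the gene; at Fgfr2 it is inside the 1468-base H3K27ac peak (blue), and at Egfr it is past the end of the 1443-base peak, inside one of 217 bases.

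Joined where they lie at most 1000 bases apart, the H3K27ac peaks at the Fgfr2 start form a group of 3 peaks over 3110 bases, of which 86.0% are covered. Those at the Egfr start form a group of 4 peaks over 2506 bases, 82.2% covered. Each group holds 1 p63 peak. Over the genome 19.4% of the joined groups of at least 2500 bases that are covered over 80% hold a p63 peak (112 of 576). These limits lie just below the values of the Egfr group, and both start groups are among the 112. The share is therefore a description only. The start groups hold 22.3% of the acetylated bases of the Fgfr2 window and 12.2% of those of the Egfr window.

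Within the windows, the p63 peaks lay in different places relative to the genes. At Fgfr2 the 6 peaks spread over 164 kb, with 3 in the gene and 3 upstream of it, and neighbours are 20.2 to 51.4 kb apart. At Egfr the 5 peaks spread over 93.3 kb, with 1 upstream and 4 in the gene, all 4 within its first 80.5 kb of about 161. The upstream counts cover unlike lengths, 190 kb at Fgfr2 and 102 kb at Egfr, and amount to 1.58 and 0.98 p63 peaks per 100 kb. No p63 peak lies past the end of either gene within its window. With so few peaks these counts describe placement only: 6 peaks carry an exact Poisson 95% interval of 2.20 to 13.1, and 5 peaks one of 1.62 to 11.7.

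The upstream p63 peaks of Fgfr2 met short H3K27ac peaks or none. The peak chr7:137432278-137432485 (208 bases), about 22.4 kb upstream, shares 105 bases with an H3K27ac peak of 154 bases, and a second one of 224 bases begins 158 bases beyond it. The peak chr7:137463943-137464070 (128 bases), about 54.0 kb upstream, has its nearest H3K27ac peak 4486 bases away and none within 2 kb, as do 25.7% of all p63 peaks. The peak chr7:137484316-137484575 (260 bases), about 74.4 kb upstream, covers a whole H3K27ac peak of 162 bases, chr7:137484401-137484562. Further H3K27ac peaks of 217 and 177 bases lie 104 bases below it and 67 bases above it, so this site is a run of short acetylated peaks. Covering a whole H3K27ac peak is rare, at 0.484% of p63 peaks (20 of 4130). H3K27ac peaks are at least 150 bases wide and the lower quartile of p63 widths is 145 bases, so many p63 peaks could not cover one. This setting, and the close pair and the bridging peak of Egfr below, were picked out from members described singly. Their shares are descriptions only.

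Inside Fgfr2, past the start, the p63 peak chr7:137356812-137357080 (269 bases, wider than 90.8% of the p63 list), about 53.1 kb into the gene, falls in a gap. An H3K27ac peak of 161 bases ends 142 bases below it and one of 336 bases begins 489 bases above it. The 5 H3K27ac peaks of this group span 2494 bases, of which 40.8% are covered. It is the only one of the 11 members flanked within 1000 bases on both sides without overlap, a setting of 11.4% of all p63 peaks. The p63 peak chr7:137321008-137321221 (214 bases), about 88.9 kb into the gene and nearest its end, shares 10 bases with a lone H3K27ac peak of 183 bases. Apart from that one, the nearest H3K27ac peaks are 11905 bases from this p63 peak on the lower side and 13866 bases on the higher side.

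Egfr held a close pair of p63 peaks that do not overlap H3K27ac. The peaks chr11:16704179-16704304 (126 bases) and chr11:16704363-16704496 (134 bases), about 52.2 and 52.4 kb into the gene, are separated by 58 bases. Only 20 of the 4130 p63 peaks (0.484%) have another within 100 bases, and these are 2 of them. The nearest H3K27ac peak, chr11:16703150-16703299, has the smallest width of the list, 150 bases, and ends 879 bases below the pair, and the next one above begins 4515 bases away. H3K27ac covers 328 and 203 bases within 2 kb of their midpoints, and 46.2% and 37.1% of all p63 peaks have fewer. Both are narrow, with 11.8% and 17.0% of p63 peaks narrower still.

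The last p63 peak in Egfr bridges acetylated peaks. The peak chr11:16730599-16730858 (260 bases), about 78.7 kb into the gene, overlaps the ends of chr11:16729891-16730633 (743 bases, the second widest H3K27ac peak of the window) and chr11:16730851-16731140 (290 bases), and so spans the gap between them. It shares 43 bases with them in all. A p63 peak touching 2 H3K27ac peaks occurs in 3.12% of the list (129 of 4130). Upstream of Egfr, the p63 peak chr11:16637549-16637737 (189 bases), about 14.4 kb from the gene start, has its nearest H3K27ac peak, of 269 bases, 1065 bases away.

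**Figure D2:**
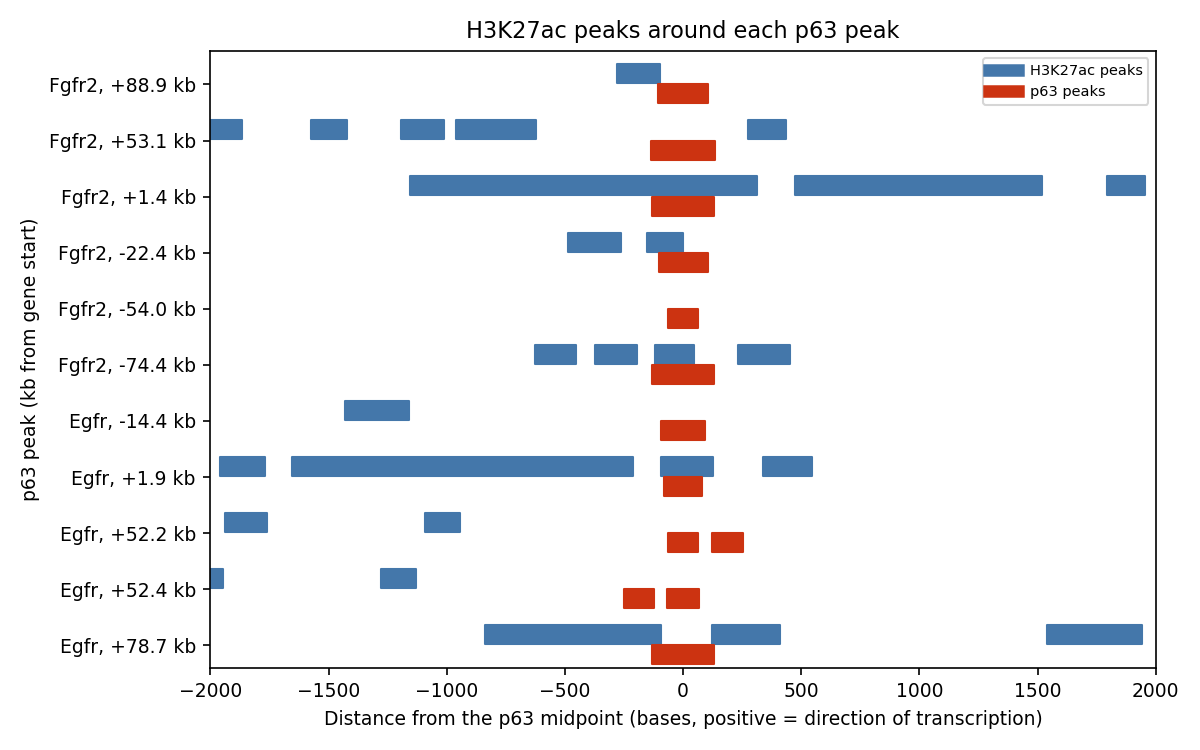
H3K27ac peaks (blue, upper bar) within 2000 bases of the midpoint of each of the 11 p63 peaks (red, lower bar), in the direction of transcription; labels give the distance from the approximate gene start, negative when upstream. H3K27ac peaks are broad at the p63 peaks nearest the 2 gene starts. None is called within 2000 bases of the Fgfr2 peak 54.0 kb upstream. At 53.1 kb in Fgfr2 and 78.7 kb in Egfr they lie on either side of p63.

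Across the 11 p63 peaks, 6 share at least 1 base with H3K27ac (54.5%, exact 95% interval 23.4 to 83.3%), where 34.8% of all p63 peaks do. The interval holds the value of the whole list, which includes these peaks. The 11 peaks come from 2 chosen loci and 1 p63 library and are not replicates, so a difference was not tested. The count is 4 of 6 at Fgfr2 (66.7%, interval 22.3 to 95.7%) and 2 of 5 at Egfr (40.0%, interval 5.27 to 85.3%), and these intervals overlap. Within 1000 bases of H3K27ac lie 5 of 6 and 3 of 5, against 68.4% of the list. The acetylated bases within 2 kb of the p63 midpoint range from 0 to 2674 at Fgfr2 and from 203 to 2061 at Egfr, and the median over all p63 peaks is 378 (quartiles 0 and 1076). The highest value of each gene is that of the peak near its start.

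H3K27ac peaks were denser within both genes than around them. The Fgfr2 gene holds 25 H3K27ac peaks, or 24.0 per 100 kb, against 7.37 in the 190 kb upstream and 11.3 in the 106 kb past its end. The Egfr gene holds 41, or 25.5 per 100 kb, against 6.86 in the 102 kb upstream and 6.57 in the 137 kb past its end. Within each gene the stretch nearer the start is the more covered. In Fgfr2 H3K27ac peaks cover 9.84% of the first 52.0 kb and 3.90% of the rest. In Egfr they cover 11.9% of the first 80.5 kb and 4.76% of the rest. The peaks at the gene start make up 2674 of the 5118 covered bases of the first stretch in Fgfr2. In Egfr they make up 2061 of 9541, so the start weighs more in Fgfr2. Exons and introns were not assigned, because no mm9 annotation was used here. By gene order in RefSeq, Fgfr2 lies between Wdr11 and Ate1, and Egfr between Sec61g and Fbxo48. Whether peaks outside the receptor genes belong to those neighbours was not tested.

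**Figure D3:**
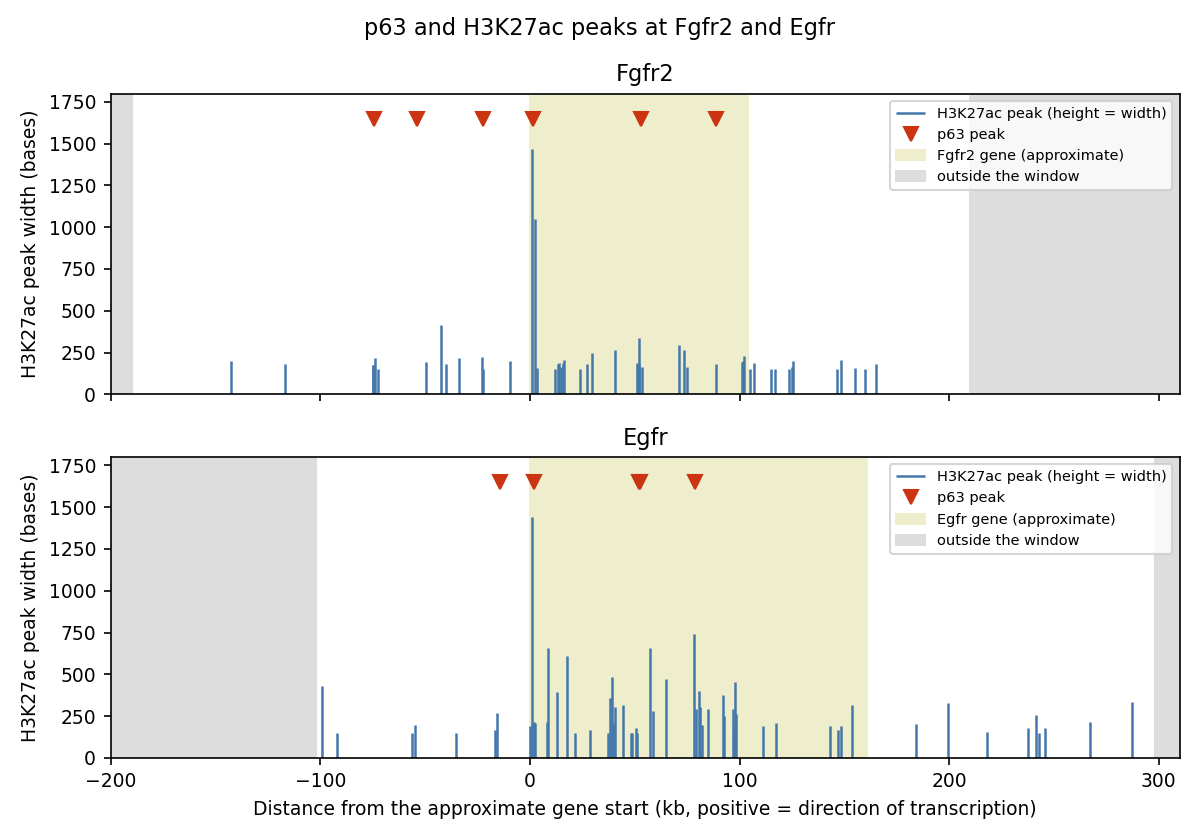
All peaks of both 400 kb windows by distance from the approximate gene start (kb, in the direction of transcription): each blue line is an H3K27ac peak, its height the peak's width in bases, and each red triangle a p63 peak, with the pair 58 bases apart in Egfr drawn as 1. The tallest lines, 1468 and 1443 bases, stand at the gene starts, the other lines at Fgfr2 stay at or below 412 bases apart from the 1047-base peak next to the start, and Egfr has 4 more of 608 to 743 bases along its first 80.5 kb.

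The loci differed more in the width of their H3K27ac peaks than in the number. The Egfr window holds 57 H3K27ac peaks and the Fgfr2 window 51, a ratio of 1.12. Its exact 95% interval of 0.752 to 1.66 counts every peak as independent. Many peaks lie in runs, and joined within 1000 bases they number 38 and 34. The interval is therefore likely too narrow, and a difference was not tested. The Egfr peaks are 216 bases wide at the median, with quartiles of 178 and 329, and those of Fgfr2 183, with quartiles of 160 and 203.5; the list as a whole has 191, with 155 and 260. Peaks of 300 bases or more number 19 of 57 at Egfr (33.3%) and 4 of 51 at Fgfr2 (7.84%), against 18.4% of the whole list. The ratio of these counts is 4.75. This limit was chosen after the widths were seen, so the ratio is a description only and is given no interval. Peaks of the smallest width, 150 bases, make up about the same part of both, 17.5% and 17.6%, against 21.7% of the list. In all, H3K27ac covers 16874 bases (4.22%) of the Egfr window and 11985 (3.0%) of the Fgfr2 window.

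Away from the gene starts, the wide H3K27ac peaks lie mostly within Egfr and mostly apart from p63. After the start peak and the 743-base peak touched by p63, the widest at Egfr are chr11:16660306-16660964 (659 bases), chr11:16709012-16709669 (658 bases) and chr11:16669504-16670111 (608 bases). They are 6323, 4515 and 15521 bases from the nearest p63 peak. The longest joined group of the Egfr window, chr11:16689043-16692863, has 5 H3K27ac peaks over 3821 bases, 39.4% covered, and no p63 peak. At Fgfr2 the widest after both start peaks are chr7:137452344-137452755 (412 bases), upstream, then chr7:137357570-137357905 (336 bases) and chr7:137338527-137338822 (296 bases), in the gene. Of these 3, the 336-base peak is 489 bases from p63, and the others are 11187 and 17305 bases away. In all, 4 of the 51 H3K27ac peaks at Fgfr2 (7.84%) and 3 of the 57 at Egfr (5.26%) share a base with p63, against 0.839% of the list. These shares depend on how many p63 peaks are present and were not adjusted for it. The windows hold 1 p63 peak per 8.5 H3K27ac peaks at Fgfr2 and 1 per 11.4 at Egfr. The whole lists hold 4130 p63 peaks for 183757 H3K27ac peaks.

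Both windows ranked high in the genome by p63 peaks and less high by acetylation. The rule for these loci asked for a comparison with random windows; in their place all 6402 adjoining windows of 400 kb within the stretch of each chromosome that holds peaks were used. The median window has 0 p63 peaks, 22 H3K27ac peaks (quartiles 10 and 41) and 4.71 kb covered by H3K27ac, and 63.4% have no p63 peak. At least 5 p63 peaks occur in 1.19% of windows (76 of 6402). Fewer p63 peaks than at Fgfr2 occur in 99.5% of windows, and fewer than at Egfr in 98.8%. Fewer H3K27ac peaks occur in 82.8% and 87.1%, and less H3K27ac coverage in 79.5% and 89.0%. On the genes' own chromosomes the values for H3K27ac peaks are 76.9% and 73.3%. The Fgfr2 window falls on this grid and is itself among the 6402, and the Egfr window lies across a border of the grid. Apart from Fgfr2, the windows of the grid were not placed around genes, as these loci were.

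Set beside windows with as many p63 peaks, the loci were in the lower part of the range of acetylation. The 64 windows with 5 or 6 p63 peaks have a median of 80 H3K27ac peaks (quartiles 56 and 102) and 25.7 kb covered (quartiles 15.8 and 36.2), against 51 peaks and 12.0 kb at Fgfr2 and 57 peaks and 16.9 kb at Egfr. Of these 64 windows, 12 have no more H3K27ac peaks than Fgfr2 and 18 no more than Egfr. The Fgfr2 window is itself counted in the 64, the 12 and the 18. Seen the other way, the 307 windows with 51 to 57 H3K27ac peaks have a median of 1 p63 peak (quartiles 0 and 2). Of them 9 (2.93%), the Fgfr2 window included, have 5 or more.

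**Figure D4:**
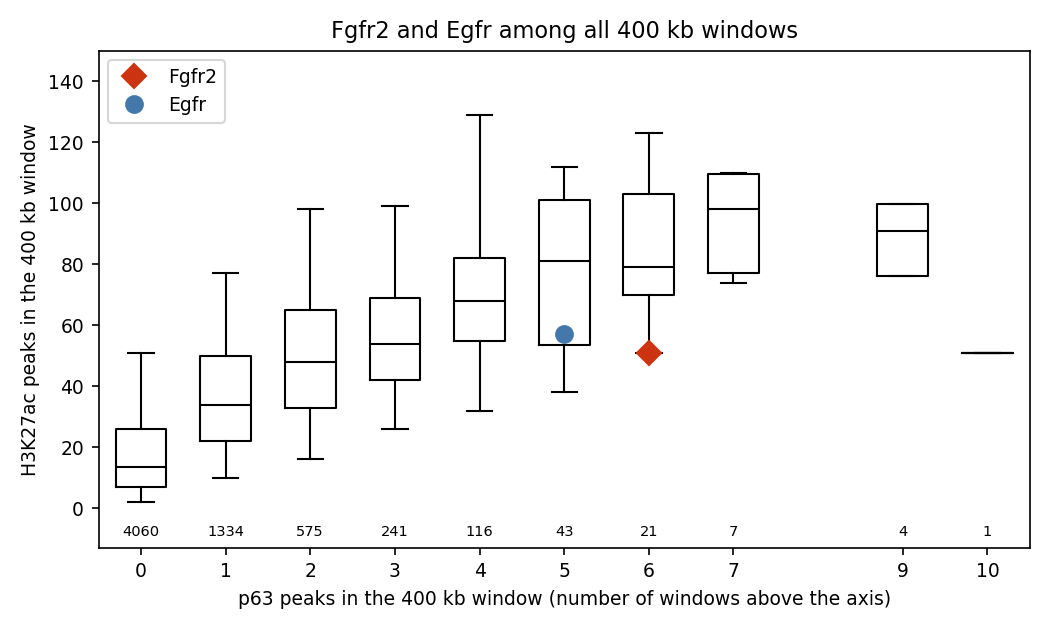
H3K27ac peaks per 400 kb window by the number of p63 peaks in the window, over 6402 windows; boxes give quartiles and median, whiskers the 5th and 95th percentiles, and the numbers above the axis the windows in each class. Fgfr2 (6 p63 and 51 H3K27ac peaks) lies below the box of its class, and Egfr (5 and 57) in the lower part of its box. The Fgfr2 window is itself counted in its class.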

How the data were processed

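p63 and H3K27ac were mapped by ChIP-seq, each with 1 ChIP and 1 input library. The labels' protocols name a commercial kit run on a robot. Bowtie 1.1.1, an aligner, and MACS2 2.1.0, a peak caller, are listed with mm9 per the submitters' processing notes; settings, threshold and filters: not given in the sources used here. Both lists deposited by the authors give chromosome, start and end, with no score or strand. Since 1072 H3K27ac peaks of chromosome 7 start beyond every GRCm38 gene there, no GRCm38 position was set against a peak.

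Peaks were assigned by midpoint to the windows; overlap needed 1 shared base. Starts are counted from 1. Windows and gene limits came with the request for these loci and are approximate. Described were every p63 peak, the 5 widest H3K27ac peaks per window and those at the gene starts. A list of other pathway genes was not placed, for want of an mm9 annotation. Members and lists were chosen with earlier results of these data known. No test was run; intervals are exact Clopper-Pearson or Poisson 95% intervals. Overlap, coverage and window counts were checked on simulated data. Software was Python 3.11.15 with scipy 1.17.1, pandas 2.3.3, numpy 2.4.6 and matplotlib 3.10.9.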

Additional observations from a re-analysis of the deposited data

How the results depend on the processing

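Of 62 alternatives, 40 left a value within 1.5 times (counts) or within the 95% interval of the main value (shares). Counting peaks by any shared base with the window or leaving out the smallest peaks moved no number of peaks by over 1.5 times. Joining H3K27ac peaks lowered their number from 51 to 34 at Fgfr2 and from 57 to 38 at Egfr. Both changes lie at the limit of 1.5 times and were counted as within it. The share of p63 peaks overlapping H3K27ac stayed within its wide interval (50 to 83.3% at Fgfr2, 20.0 to 60.0% at Egfr). Taken over the gene with 10 kb on each side, densities rose from 1.5 to 2.42 p63 and from 12.8 to 22.6 H3K27ac peaks per 100 kb at Fgfr2, and from 1.25 to 2.21 and from 14.2 to 22.7 at Egfr. The rank among windows moved with window size and with the chromosomes compared. With 200 kb windows, the shares of windows with fewer p63 peaks, fewer H3K27ac peaks and less coverage were 99.9%, 93.9% and 91.6% for Fgfr2 and 99.4%, 95.2% and 95.8% for Egfr. With 800 kb they were 98.2%, 87.2% and 84.4%, and 97.0%, 77.4% and 81.2%. Against windows of the same chromosome, the shares for H3K27ac peaks and coverage were 76.9% and 74.3% (Fgfr2), and 73.3% and 77.0% (Egfr), and that for p63 peaks at Egfr was 97.6%. Without the smallest peaks the p63 share at Egfr was 99.1%. No paired analysis was possible because no library has a replicate. With no depth given, the absence of an H3K27ac peak beside p63 does not show that acetylation is absent there.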

Other observations

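Widening the view to 800 kb around the same centres added 1 p63 peak to each locus. Past the end of Fgfr2, about 234 kb from its start, the peak chr7:137175652-137175771 has the smallest width of the p63 list, 120 bases, and misses the nearest H3K27ac peak by 36 bases. Upstream of Egfr, about 160 kb from its start, the peak chr11:16492037-16492224 (188 bases) shares 66 bases with H3K27ac. H3K27ac peaks rose from 51 to 108 around Fgfr2 and from 57 to 88 around Egfr. The longest stretches without an H3K27ac peak between neighbours in the 400 kb windows were 41.8 kb at Fgfr2 and 35.8 kb at Egfr. Stretches from the first or last peak to the window edge were not counted, and at Fgfr2 these are longer.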
